A study of Mus musculus with 24 samples.

Results

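The 58 genes described here are nuclear genes for subunits of the mitochondrial respiratory chain, 35 of complex I, 4 of complex II, 9 of complex III and 10 of complex IV. They were taken from a list of symbols and matched to the gene identifiers of the count files, which held 54446 identifiers. All 58 were found and all 58 passed the filter on low counts. The series holds RNA of CD11b+ myeloid cells from MC38 tumours, a transplanted colon carcinoma, and compares the response to irradiation with and without the m6A reader YTHDF2. WT mice carried floxed Ythdf2 without Cre, and cKO mice carried floxed Ythdf2 with Cre expressed from the Lyz2 locus, which is active in macrophages, monocytes and granulocytes, and all were C57BL/6J mice. Tumours were left unirradiated (Ctrl) or received 20 Gy (IR), with cells taken 3 days later, and each of the 4 groups has 3 Input libraries (polyadenylated RNA) and 3 m6A IP libraries (RNA fragments pulled down with an N6-methyladenosine antibody). Cells of several mice were pooled for a library, and the replicates are termed technical in one passage of the methods and biological in another, so SEs and p-values describe the spread between libraries.

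The respiratory chain passes electrons from NADH through complex I, and from succinate through complex II, to ubiquinone, then through complex III and cytochrome c to complex IV, which reduces oxygen. Complexes I, III and IV pump protons that drive ATP synthase, whereas complex II, the succinate dehydrogenase, also works in the TCA cycle and pumps none. All subunits of complex II are nuclear-encoded, whereas the other complexes join nuclear-encoded subunits with subunits encoded by the mitochondrial genome. In myeloid cells the balance between respiration and glycolysis is known to change with activation.

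Total gene counts per library, in units of 1000000, ran from 65.2 to 83.7 in the Inputs and from 68.8 to 86.4 in the IP libraries. Ythdf2 itself did not fall in the cKO Inputs: it lay at 95.7 to 104 counts per 1000000 (CPM) in the 6 WT Inputs and at 175 to 234 CPM in the 6 cKO Inputs, and a count over the whole gene does not show whether the floxed part is missing. Lyz2, the locus that carries Cre, lay at 19665 to 20891 CPM in the WT Inputs and at 298 to 420 CPM in the cKO Inputs, as the labels have it. Wdfy1, a gene outside the members, also split by genotype, with 24.8 to 28.7 CPM in the WT Inputs and 4.25 to 6.07 CPM in the cKO Inputs. Whether the genotypes also differed in strain background was not tested. In the IR IP libraries Lyz2 went against the labels, at 95.3 to 98.3 CPM in those labelled WT IR and 20642 to 20924 CPM in those labelled cKO IR. Wdfy1 went against them too, at 3.69 to 4.10 CPM in those labelled WT IR and 15.5 to 16.7 CPM in those labelled cKO IR. IR IP groups therefore enter every test as the mean of both genotypes, which stays the same if the labels were exchanged, and each group by label is given as a value only. The labels name no batch or date, so a batch and a group cannot be told apart.

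In the Input libraries the members took a larger share of the RNA in irradiated cKO cells than in any other group. All 58 together held 0.387% to 0.392% of the gene counts in the WT Ctrl libraries, 0.346% to 0.366% in WT IR, 0.387% to 0.391% in cKO Ctrl and 0.485% to 0.498% in cKO IR. The cKO IR libraries stood above the other 9, and the WT IR libraries lay below all others. Complex I went from 0.135% to 0.141% in WT IR to 0.192% to 0.196% in cKO IR, complex III from 0.0605% to 0.0646% to 0.0870% to 0.0898%, and complex IV from 0.101% to 0.110% to 0.153% to 0.157%. Complex II was also higher in cKO IR, at 0.0532% to 0.0560%, than in WT IR, at 0.0492% to 0.0513%. It was the exception in that cKO IR did not stand above the Ctrl groups, with 0.0556% to 0.0560% in WT Ctrl and 0.0563% to 0.0573% in cKO Ctrl. These are shares without a test, and in bulk samples more cells of a type and more RNA of a gene per cell cannot be told apart.

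**Figure D1:**
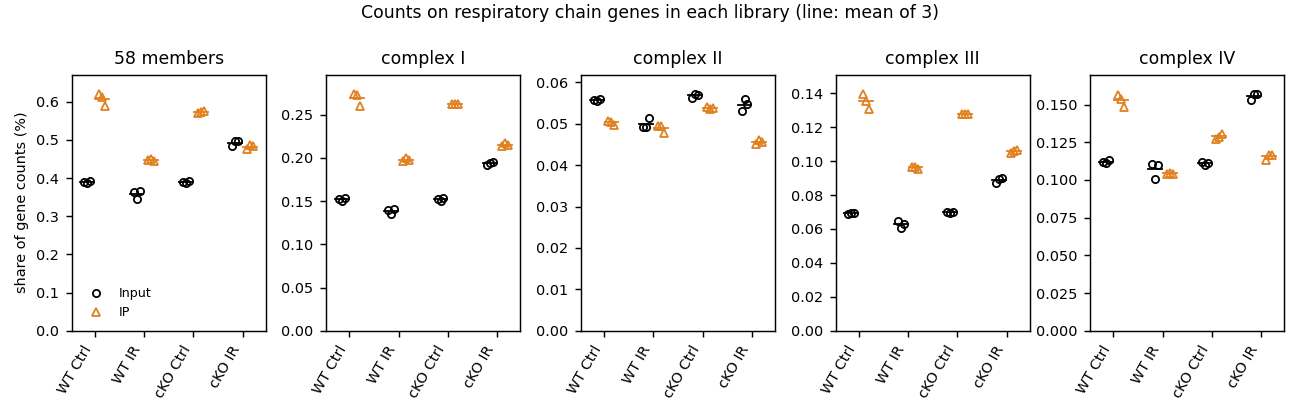
Share of all gene counts (percent, axes from 0) held by the 58 members and by each complex in every library, with Input libraries as circles, IP libraries as triangles and a line at the mean of 3. Input shares were highest in cKO IR except for complex II, and IP shares were lower in both IR groups, as labelled, than in both Ctrl groups.

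Levels per length differed widely between members. On the scale of CPM per kilobase of exon (RPKM), averaged over the 12 Inputs, the highest member was Ndufa2, an accessory subunit of complex I, at 111.8 in its complex. Sdha, the catalytic flavoprotein of succinate dehydrogenase, led complex II at 66.3 RPKM. Uqcrb led complex III at 110.6 RPKM, and Cox8a, a small subunit of cytochrome c oxidase, led complex IV and all members at 206.9 RPKM. The lowest was Ndufb2 at 0.579 RPKM, and its exons overlap another annotated gene on the same strand. Ndufa13, Ndufb8, Ndufb9 and Cox4i1 also overlap an annotated protein-coding gene on their strand, so that reads in shared exons may not have been counted and their levels are uncertain.

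Irradiation of WT cells lowered a minority of the members by small amounts. Comparing WT IR with WT Ctrl Inputs, 20 of 58 members were lower and 1 was higher at an adjusted p under 0.05 (edgeR quasi-likelihood test, Benjamini-Hochberg over all 16090 genes tested), where 17.0% of all genes were lower and 14.7% higher. The median log2 difference of the members was -0.09, against 0.01 over all genes tested. By complex, 10 of 35 members of complex I, 3 of 4 of complex II, 4 of 9 of complex III and 3 of 10 of complex IV fell. The count depends on single libraries: 11 fell and 1 rose without replicate 2 of WT Ctrl, 12 fell and 1 rose without replicate 2 of WT IR, and 28 fell and 2 rose without replicate 1 of WT IR. It was also 11 and 1 when only the 6 libraries compared were fitted. Shares of all genes are not given for these smaller fits.

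Ndufa4 (ENSMUSG00000029632.7, chr6:11900292-11907497, mm10), first assigned to complex I and now placed in complex IV, showed the largest fall. All counts by complex given here keep Ndufa4 in complex I. The Input level of Ndufa4 was 9.79, 10.8 and 9.90 CPM in WT Ctrl and 7.60, 7.72 and 6.68 CPM in WT IR. The groups did not overlap, and the log2 difference was -0.47 ± 0.085 (SE, n = 3 and 3, edgeR adjusted p = 0.00019). Ndufs8, an iron-sulfur subunit of complex I, had 40.7, 39.7 and 42.6 CPM in WT Ctrl and 32.7, 31.1 and 33.2 CPM in WT IR. The log2 difference was -0.34 ± 0.054 (edgeR adjusted p = 4.92e-05), again with no overlap. Uqcrc1, a core protein of complex III, stood at 152.1, 150.1 and 147.2 CPM in WT Ctrl and at 132.9, 120.8 and 122.9 CPM in WT IR, with a log2 difference of -0.26 ± 0.037 (edgeR adjusted p = 1.46e-05). Sdhb, the iron-sulfur subunit of complex II, fell by 0.23 ± 0.042 (edgeR adjusted p = 0.000264), and Ndufs4, a complex I subunit whose loss in mice causes encephalopathy, fell by 0.21 ± 0.056 (edgeR adjusted p = 0.00595). The only member that rose was Uqcrh, the hinge protein of complex III, by 0.19 ± 0.041 (edgeR adjusted p = 0.00136).

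Without irradiation, loss of Ythdf2 left the members' Input levels close to those of WT. In cKO Ctrl against WT Ctrl, 0 members were lower and 1 was higher, where 7.61% of all genes were lower and 8.05% higher, and DESeq2 gave the same counts. At an unadjusted p under 0.05, 2 members were lower and 3 higher. The median log2 difference was -0.02, and single members ranged from -0.11 to 0.14. Uqcrfs1, the Rieske iron-sulfur protein of complex III, was the member called, with 79.5, 85.0 and 82.7 CPM in WT Ctrl and 91.1, 91.2 and 90.1 CPM in cKO Ctrl. Its difference of 0.14 ± 0.041 (edgeR adjusted p = 0.0244) was not called when any of 5 of the 6 libraries compared was left out (replicates 1 and 3 of WT Ctrl and each of cKO Ctrl), with adjusted p-values up to 0.134. When only those 6 libraries were fitted, 4 members were lower and 3 higher. No share of all genes is given for that fit or for the unadjusted p-values, so these counts cannot be set against it.

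In cKO cells irradiation went with higher levels of most members. In cKO IR against cKO Ctrl, 48 members were higher and 2 lower, where 21.8% of all genes were higher and 23.8% lower, and the median log2 difference was 0.38. All 10 members of complex IV, 8 of 9 of complex III and 29 of 35 of complex I rose, but 1 of 4 of complex II. Uqcrh (ENSMUSG00000063882.12, chr4:116066965-116075071, mm10) rose most, from 81.0, 76.8 and 76.4 CPM in cKO Ctrl to 155, 145 and 142 CPM in cKO IR. All 3 irradiated libraries lay above the unirradiated ones, with a log2 difference of 0.92 ± 0.041 (edgeR adjusted p = 9.37e-13), a 1.89-fold higher level. Ndufa7, an accessory subunit of complex I, went from 20.0, 19.6 and 20.9 CPM to 35.9, 34.3 and 33.3 CPM (log2 difference 0.77 ± 0.051, edgeR adjusted p = 2.02e-10). Ndufb4, Ndufa11 and Ndufa1, further accessory subunits of complex I, rose by 0.67 ± 0.053, 0.66 ± 0.086 and 0.63 ± 0.056.

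Sdha and Uqcrc1 were the members that fell in cKO IR against cKO Ctrl. Sdha (ENSMUSG00000021577.14, chr13:74322254-74350280, mm10) had 287, 293 and 297 CPM in cKO Ctrl and 235, 244 and 235 CPM in cKO IR. The groups did not overlap, and the log2 difference was -0.30 ± 0.030 (edgeR adjusted p = 7.45e-08). Uqcrc1 fell from 147, 147 and 145 CPM to 133, 132 and 133 CPM, a log2 difference of -0.14 ± 0.037 (edgeR adjusted p = 0.00342).

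Between irradiated cells of both genotypes almost all members differed. In cKO IR against WT IR, 54 of 58 members were higher and 1 was lower, where 23.9% of all genes were higher and 23.8% lower. The median log2 difference was 0.45, against -0.0028 over all genes. In 53 members every cKO IR library lay above every WT IR library, as did 26.0% of all genes. By complex, 33 of 35 members of complex I rose, 3 of 4 of complex II, 8 of 9 of complex III and all 10 of complex IV. The same libraries of WT IR and cKO IR serve in the comparisons above, so these counts are not separate evidence.

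**Figure D2:**
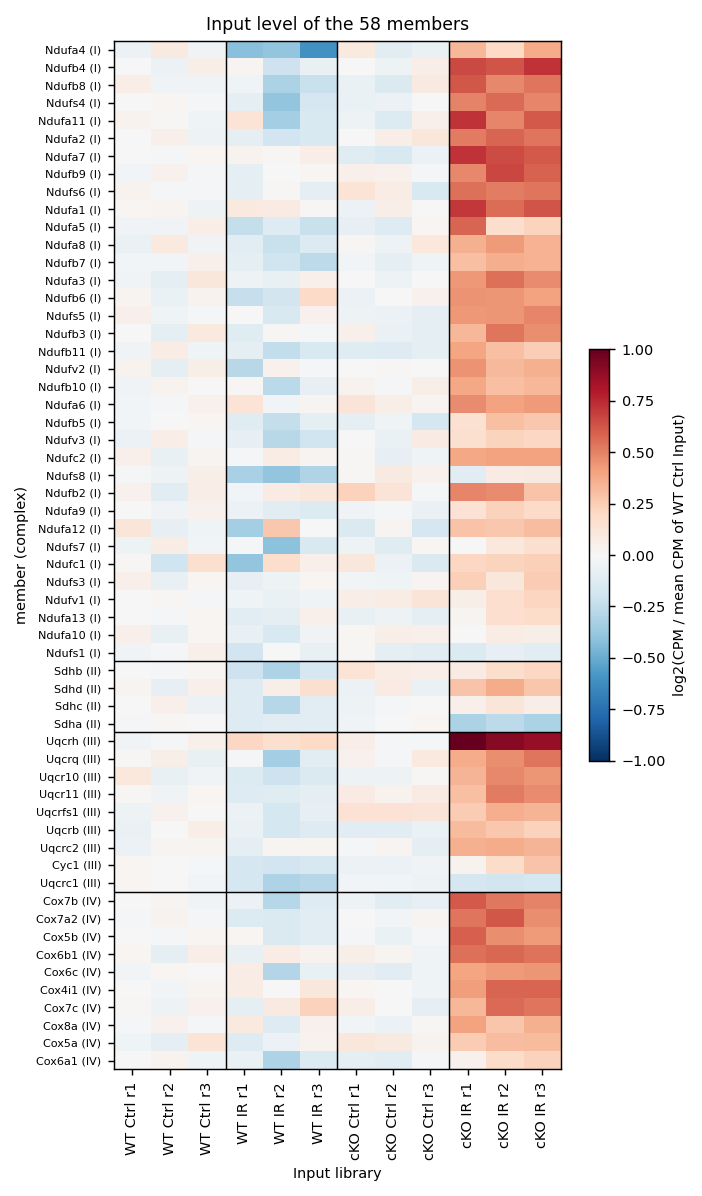
Input level of each member (row, with its complex) in each of the 12 Input libraries (column), as log2 of the CPM over the mean CPM of WT Ctrl. Within a complex, members are ordered by the difference between cKO IR and WT IR. Most rows are red in the 3 cKO IR columns, and Sdha, Uqcrc1 and Ndufs1 are blue there.

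Ndufa4 again led, with 12.8, 11.7 and 13.2 CPM in cKO IR against 7.60, 7.72 and 6.68 CPM in WT IR. The log2 difference was 0.78 ± 0.084 (edgeR adjusted p = 1.99e-07), a 1.71-fold higher level. Ndufb4 had 84.4, 82.7 and 88.1 CPM in cKO IR and 54.3, 46.2 and 50.7 CPM in WT IR (log2 difference 0.75 ± 0.053, edgeR adjusted p = 4.19e-10). Uqcrh had 155, 145 and 142 CPM against 89.5, 86.4 and 88.6 CPM (0.74 ± 0.041, edgeR adjusted p = 1.49e-11). None of these 3 members overlapped between the groups. Ndufb8 rose by 0.74 ± 0.066 and Ndufs4 by 0.73 ± 0.056. The member that was lower was Sdha, with 235, 244 and 235 CPM in cKO IR and 268, 272 and 271 CPM in WT IR (log2 difference -0.18 ± 0.030, edgeR adjusted p = 3.19e-05). Ndufs1, a large core subunit of complex I, gave -0.02 ± 0.049, Uqcrc1 gave 0.08 ± 0.037 and Ndufc1 gave 0.26 ± 0.106, and none of these passed the test (edgeR adjusted p = 0.733, 0.0856 and 0.0534).

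Within complex I the core subunits, among them those that carry the flavin and iron-sulfur centres, had smaller median differences than the accessory subunits in both cKO IR comparisons. Ndufa4 is counted with the accessory subunits here. This split was made after the values were seen and has no test. In cKO IR against WT IR 5 of 6 core members rose, with a median log2 difference of 0.26, and 28 of 29 accessory members rose, with a median of 0.49. Between cKO IR and cKO Ctrl 2 of 6 core and 27 of 29 accessory members rose, with medians of 0.10 and 0.43. Both medians were -0.08 in WT IR against WT Ctrl. The core members are also longer, with a median coding length of 766.5 bases against 393, and with the trend of each library on coding length taken out the medians of cKO IR against WT IR were 0.10 and 0.16.

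The 4 members of complex II did not move together. Sdhb had 126.5, 124.4 and 128.3 CPM in WT Ctrl, 109.5, 101.8 and 112.5 CPM in WT IR, 139.3, 133.3 and 132.3 CPM in cKO Ctrl and 133.5, 143.1 and 145.7 CPM in cKO IR. Only its WT IR libraries lay below all others, and cKO IR exceeded WT IR by 0.38 ± 0.042 (edgeR adjusted p = 2.36e-07) while cKO IR against cKO Ctrl gave 0.06 ± 0.042, which did not pass. Sdhc, a membrane anchor, also had its lowest levels in WT IR, with 76.1, 79.0 and 73.1 CPM in WT Ctrl, 69.6, 62.4 and 70.3 CPM in WT IR, 73.3, 75.4 and 76.3 CPM in cKO Ctrl and 79.0, 82.9 and 79.7 CPM in cKO IR. Sdhd, the other anchor, was not called between WT IR and WT Ctrl (0.04 ± 0.0607), and rose in cKO IR against cKO Ctrl by 0.32 ± 0.0603 (edgeR adjusted p = 0.000154). Its cKO IR libraries at 77.2, 81.8 and 76.6 CPM lay above the other 9, all of them at or under 70.8 CPM. Once the length trend was taken out, cKO IR still exceeded WT IR in Sdhb, by 0.20 (edgeR adjusted p = 0.000633). The corrected difference of Sdhd was 0.06 from cKO Ctrl to cKO IR and -0.03 from WT IR to cKO IR, and neither passed (edgeR adjusted p = 0.471 and 0.714). Sdhc then gave -0.04 against WT IR, which did not pass, and -0.15 against cKO Ctrl, which was called lower (edgeR adjusted p = 0.505 and 0.00852).

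Of the core proteins of complex III, Uqcrc2 had 57.8, 61.2 and 61.5 CPM in WT Ctrl, 56.2, 61.3 and 61.2 CPM in WT IR, 59.6, 61.2 and 56.5 CPM in cKO Ctrl and 76.8, 77.8 and 76.1 CPM in cKO IR, so that only cKO IR stood apart, whereas Uqcrc1 was lower in both IR groups than in both Ctrl groups. Cyc1, the cytochrome c1 subunit, fell in WT IR against WT Ctrl by 0.17 ± 0.050 (edgeR adjusted p = 0.0114) and rose in cKO IR against cKO Ctrl by 0.22 ± 0.050 (edgeR adjusted p = 0.000983). The small subunits Uqcrb, Uqcrq, Uqcr10 and Uqcr11 rose in cKO IR against WT IR by 0.40, 0.61, 0.58 and 0.55, with SEs of 0.041 to 0.062. After removal of the length trend these values were 0.03, 0.19, 0.13 and 0.07, and of the 4 only Uqcrq passed the test (edgeR adjusted p = 0.0179).

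All members of complex IV rose in cKO IR against WT IR, by 0.32 ± 0.055 for Cox6a1 to 0.70 ± 0.048 for Cox7b. Cox4i1, the largest nuclear subunit and one that binds regulators of the enzyme, had 253, 248 and 257 CPM in WT Ctrl, 266, 254 and 273 CPM in WT IR, 256, 253 and 247 CPM in cKO Ctrl and 338, 378 and 378 CPM in cKO IR. Its cKO IR libraries lay above the other 9. Cox7a2 had 45.0, 47.8 and 42.9 CPM in cKO IR against 28.3, 28.2 and 28.8 CPM in WT IR (0.67 ± 0.048, edgeR adjusted p = 6.29e-10). Cox8a, the member with the highest level per length, had 159, 146 and 154 CPM in cKO IR against 129, 110.0 and 124 CPM in WT IR (0.34 ± 0.048, edgeR adjusted p = 6.11e-06). After that correction 5 of the 10 were still called, Cox7b at 0.28 ± 0.045, Cox7a2 at 0.26, Cox5b at 0.23, Cox4i1 at 0.17 and Cox6b1 at 0.14. Cox6a1 at -0.05, Cox8a at -0.10, Cox7c at -0.06, Cox5a at 0.02 and Cox6c at 0.08 were not called then.

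The response to irradiation differed between the genotypes by a test of the difference itself. The interaction, the IR effect in cKO minus that in WT, was positive in 50 members and negative in 1 at an adjusted p under 0.05, where 15.0% of all genes were higher and 15.2% lower. Its median over the members was 0.48. The largest interactions were those of Ndufa4 at 0.80 ± 0.118, Cox7b, a small subunit of complex IV, at 0.78 ± 0.067, Ndufb8 and Ndufs4 at 0.77 each (SE 0.093 and 0.078), and Ndufa11 at 0.76 ± 0.122. Cox7b had 102.4, 104.5 and 99.96 CPM in WT Ctrl, 98.1, 84.0 and 93.3 CPM in WT IR, 98.7, 94.9 and 96.9 CPM in cKO Ctrl, and 156, 147 and 144 CPM in cKO IR. Only its cKO IR libraries stood apart from the other 9. Sdha had the negative interaction, at -0.18 ± 0.042 (edgeR adjusted p = 0.00246).

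**Figure D3:**
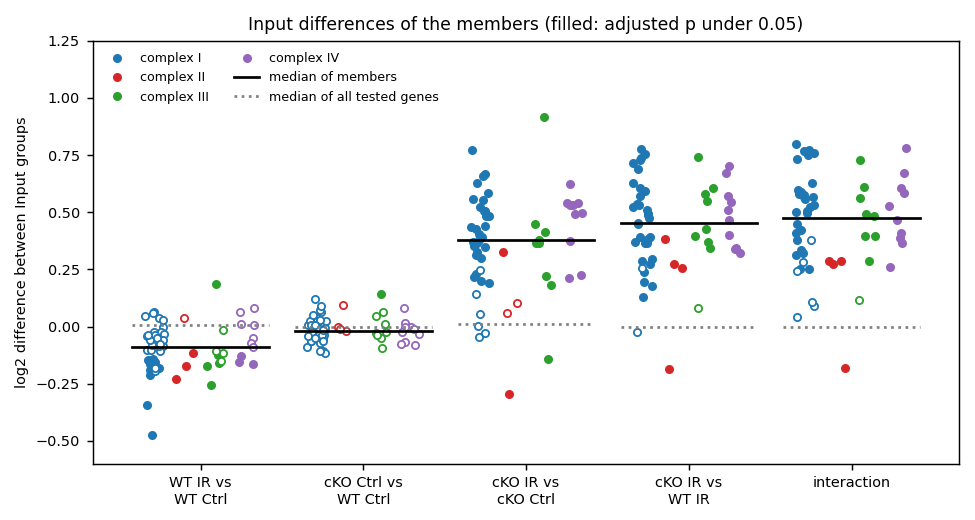
Log2 difference of each member in the 4 comparisons of Input groups and in the interaction, coloured by complex, with filled points for an adjusted p under 0.05, a black line at the median of the 58 members and a dotted line at the median of all tested genes. The members' median was -0.09 in WT IR vs WT Ctrl, -0.02 in cKO Ctrl vs WT Ctrl, 0.38 in cKO IR vs cKO Ctrl, 0.45 in cKO IR vs WT IR and 0.48 for the interaction.

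The members are short genes, and in these libraries the differences moved with length. Coding length ran from 168 to 2181 bases with a median of 420, and 33 members had at most 450 bases. Over all tested genes the median log2 difference of cKO IR against WT IR was 0.37 for coding lengths up to 450 bases, 0.23 up to 900, 0.06 up to 1800, -0.15 up to 3600 and -0.41 above. In the same classes the members' medians were 0.52, 0.44, 0.29 and -0.10, with 33, 16, 7 and 2 members and none in the longest class. The members at the bottom of the order, Ndufs1 and Sdha, were the longest. Of the 58 members, 49 lay above the median of their own length class, and the median distance over all 58 was 0.16. Genes for cytosolic ribosomal proteins, looked at after these values were seen, had a median of 0.52 over 78 genes.

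When the trend of each library on coding length was taken out, fewer members were called and the differences shrank. Between cKO IR and WT IR 29 members were then higher and 2 lower, where 21.1% of the genes with a coding length were higher, and the median was 0.14. Ndufb8 kept 0.46 ± 0.064, Ndufs4 0.44 ± 0.053, Ndufb4 0.41 ± 0.050, Ndufa4 0.36 ± 0.086 and Uqcrh 0.34 ± 0.038. Sdha stayed lower at -0.11 ± 0.029, and Ndufa13, which rose without the correction, was lower at -0.15 ± 0.045. Between cKO IR and cKO Ctrl 22 members were higher and 4 lower, where 21.5% of genes were higher, so the members' share of rises came nearer to that of all genes. The interaction was positive in 23 members and negative in 0 by edgeR, where 10.9% of genes were higher, and at an unadjusted p under 0.05 in 31 and 0. For the unadjusted counts no share of all genes is given. None is given either for the members called lower in these cKO IR comparisons and the interaction. In WT IR against WT Ctrl 18 fell and 1 rose, where 21.1% of genes were lower and 17.4% higher. Whether the length trend reflects RNA quality, library making or the cells was not tested.

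**Figure D4:**
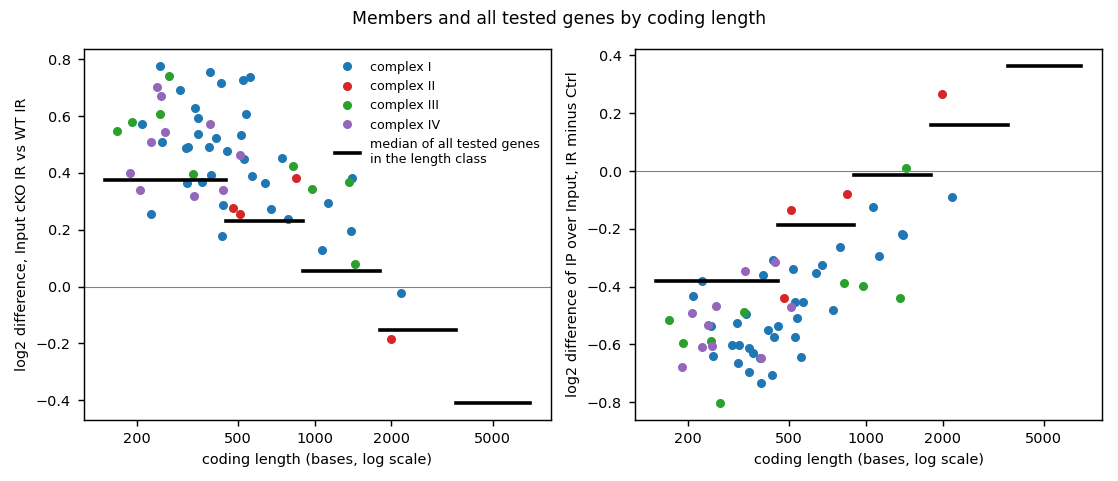
Log2 difference of each member against its coding length (bases, log scale), for Input levels of cKO IR vs WT IR (left) and for IP over Input of IR minus Ctrl (right), with black bars at the median of all tested genes in 5 length classes. Both the members and the class medians slope with length, downwards on the left from 0.37 to -0.41 and upwards on the right from -0.38 to 0.36.

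Other genes of the pathway were tested in the same fit, in which 23.9% of all genes were higher and 23.8% lower in cKO IR against WT IR, and 17.0% were lower and 14.7% higher in WT IR against WT Ctrl. Of 18 tested genes of ATP synthase, 18 rose in cKO IR against WT IR (median log2 difference 0.48), led by Atp5e at 0.85 ± 0.057 and Atp5k at 0.75 ± 0.063, and 7 fell in WT IR against WT Ctrl, led by Atp5g1 at -0.29 ± 0.052 and Atp5o at -0.21 ± 0.056. Assembly factors of the complexes were higher in 27 and lower in 2 of 43, with Lyrm7 at 1.24 ± 0.501 and Coa3 at 0.89 ± 0.059, and in WT IR against WT Ctrl 5 fell and 4 rose, with Bcs1l at -0.61 ± 0.120 and Cox17 at 0.58 ± 0.097. Subunits outside the 58, mostly isoforms of other tissues, were higher in 4 of 6 tested, with Ndufb1-ps at 0.56 ± 0.047 and Cox7a2l at 0.40 ± 0.044. In WT IR against WT Ctrl 3 of these 6 rose, with Cox6b2 at 1.14 ± 0.378 and Cox7a2l at 0.31 ± 0.044. Of the genes for cytochrome c and coenzyme Q synthesis 6 of 12 were higher in cKO IR, with Cycs, somatic cytochrome c, at 0.48 ± 0.043 and Coq8a at 0.42 ± 0.073, and 4 fell in WT IR against WT Ctrl, with Coq6 at -0.42 ± 0.133 and Coq4 at -0.29 ± 0.10.

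Enzymes of the TCA cycle were higher in 9 and lower in 1 of 16 in cKO IR against WT IR, with Idh3a at 0.30 ± 0.042 and Suclg1 at 0.29 ± 0.043. In WT IR against WT Ctrl 8 of them fell, with Idh3a at -0.29 ± 0.042 and Suclg2 at -0.23 ± 0.071. Of 14 regulators of mitochondrial biogenesis 3 were higher (21.4%) and 4 lower (28.6%), near the shares of all genes, among them Tfb1m at 0.66 ± 0.107 and the coactivator Ppargc1b at -0.53 ± 0.079. In WT IR against WT Ctrl 6 of the regulators fell and 1 rose, with Ppargc1b at -0.33 ± 0.076 and Polrmt at -0.25 ± 0.068. With the length trend taken out the counts for cKO IR against WT IR were smaller: 9 higher and 1 lower for ATP synthase, 13 and 2 for assembly factors, 1 and 0 of 5 for the further subunits, 5 and 0 for cytochrome c and coenzyme Q, 5 and 1 for the TCA cycle, and 3 and 2 for the regulators. In that fit 21.1% of genes were higher, and no share is given for those lower.

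The 13 protein-coding genes of the mitochondrial genome mostly went the other way. In cKO IR against WT IR 10 were lower and 1 was higher, where 23.8% of all genes were lower and 23.9% higher. The median log2 difference was -0.87, with mt-Nd4l at -1.18 ± 0.265 and mt-Nd6 at -1.13 ± 0.045. With the length trend taken out, 11 were lower and 0 higher, and no share of all genes is given for the lower count. In WT IR against WT Ctrl 0 fell and 7 rose, where 17.0% of all genes were lower and 14.7% higher. The median was 0.31, with mt-Nd6 at 0.54 ± 0.044 and mt-Nd3 at 0.52 ± 0.106. All reads on the mitochondrial genome made up 6.13% to 7.25% of the gene counts in WT IR Inputs and 3.39% to 3.75% in cKO IR Inputs, against 4.61% to 4.84% in WT Ctrl and 5.34% to 5.51% in cKO Ctrl.

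Levels of cell type markers moved with the same groups. The 14 markers of CD11b+ myeloid cells were all above 0 in every group, and their summed level was 24492 to 25601 CPM in WT IR and 5720 to 5797 CPM in cKO IR Inputs. Lyz2 alone lay at 19665 to 20891 CPM in WT IR and at 409 to 420 CPM in cKO IR Inputs. On average its fall was larger than that of the sum, so the other markers together were higher in cKO IR. In WT IR against WT Ctrl 12 of the 14 myeloid markers fell and 1 rose, led by S100a9 and S100a8, where 17.0% of all genes were lower and 14.7% higher. In cKO IR against WT IR 5 fell and 6 rose, led by Lyz2 and C1qa, where 23.8% of all genes were lower and 23.9% higher. The same shares of all genes stand beside the counts of the other marker lists. Of 4 tested markers each, B cells had 2 fall in WT IR against WT Ctrl (Ighm and Cd79b) and 0 called in cKO IR against WT IR, and dendritic cells had 3 rise (Zbtb46 and Ccr7 led) and then 2 fall and 1 rise (Flt3 and Zbtb46 led). T and NK cells had 0 of 2 called in either comparison, and tumour epithelium 0 of 3 and then 1 lower and 1 higher (Cdh1 and Krt20), while fibroblast and endothelial markers had 2 lower and 1 higher of 5 (Col1a1 and Pdgfra led) and then 1 lower (Pecam1). The erythroid and platelet markers had 1 lower and 6 higher of 7 (Hbb-bs and Hba-a1 led), and then 5 lower and 1 higher (Hbb-bs and Hba-a2 led). Markers of dendritic cells summed to 405 to 415 CPM in WT Ctrl, 620 to 639 in WT IR, 461 to 467 in cKO Ctrl and 702 to 737 in cKO IR, whereas B cell markers summed to at most 9.05 CPM, T and NK cell markers to at most 2.82 CPM with Gzma at 0 in every Input group, tumour epithelial markers to at most 8.06 CPM with Krt19 at 0 in every Input group and fibroblast and endothelial markers to at most 4.24 CPM in any Input. Of the 7 dendritic cell markers, Cd209a, Clec9a, Siglech and Xcr1 lay under 1 CPM in every Input library. The dendritic cell sums therefore came almost wholly from Flt3, Zbtb46 and Ccr7. Erythroid and platelet markers summed to 299.6 to 329.9 CPM in WT IR and 362 to 373 CPM in cKO IR, with Hbb-bs and Hba-a2 at 0 in all cKO IR libraries. Their part in the members' differences was not tested.

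In the m6A IP libraries of unirradiated WT cells most members were enriched over Input before coding length was taken into account. IP over Input, the log2 ratio of IP to Input levels in a fit of all 24 libraries, was higher than 0 in 40 members and lower in 8 of 58 at an adjusted p under 0.05 (edgeR, 17373 genes), where 38.1% of all genes were higher and 37.5% lower. The median was 0.42, against 0.02 over all genes. By complex it was 0.53 in complex I, -0.23 in complex II, 0.45 in complex III and 0.15 in complex IV. This ratio also moved with coding length, with a median of 0.35 for genes of up to 450 bases and -0.55 above 3600. With the length trend taken out 27 members were higher and 16 lower, where 41.3% of genes were higher. No share of all genes is given for the lower count. The members' share of enriched genes then came near that of all genes. In cKO Ctrl 39 members were higher and 12 lower, where 37.8% of genes were higher and 36.0% lower, with a median of 0.28.

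Ndufa12, an accessory subunit of complex I, had the highest IP over Input of the members. In WT Ctrl its IP level was 73.7, 68.7 and 66.6 CPM and its Input level on the same scale 21.2, 18.4 and 18.9 CPM. The ratio was 1.84 ± 0.090 on the log2 scale (edgeR adjusted p = 6.19e-19), and every IP library lay above every Input. Uqcrb followed at 1.47 ± 0.041, with 298, 291 and 269 CPM in IP and 98.5, 103 and 107 CPM in Input, and Uqcrq, also a small subunit of complex III, at 1.34 ± 0.055. Sdha was the lowest, with 165, 167 and 164 CPM in IP and 313, 319 and 316 CPM in Input, at -0.93 ± 0.029 (edgeR adjusted p = 1.45e-24). Cox4i1 at -0.58 ± 0.040 and Ndufb5 at -0.45 ± 0.052 were next.

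**Figure D5:**
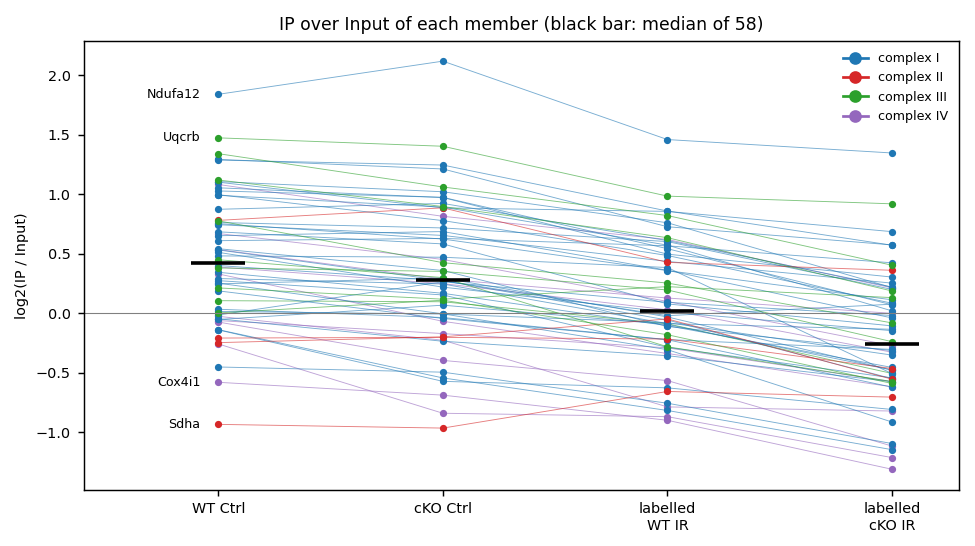
IP over Input (log2 ratio from the fit of 24 libraries) of each member in WT Ctrl, cKO Ctrl and the IR groups as labelled, with lines joining the values of a member and black bars at the median of 58. Medians were 0.42, 0.28, 0.02 and -0.26, and most members lay lower in both IR groups, with Sdha rising. In the IR groups IP and Input are paired by label, which Lyz2 goes against in IP, and ratios with the labels exchanged are not given.

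Deposited m6A peaks, called by the authors in each IP library, lay on more members than on genes at large in unirradiated cells. A peak seen in all 3 libraries of a group marked 31 members in WT Ctrl, where 29.6% of tested genes were marked, 24 in cKO Ctrl (27.7% of genes), 15 in the libraries labelled WT IR (25.1% of genes) and 5 in those labelled cKO IR (22.3% of genes). In any group 32 members were marked (35.0% of genes), and in all 4 groups 5 were marked (17.3% of genes), which were Ndufa10, Ndufa12, Ndufb7, Ndufv3 and Uqcrb. Single libraries had a peak on 38 to 41 members in WT Ctrl, 29 to 33 in cKO Ctrl, 20 to 31 in those labelled WT IR and 6 to 11 in those labelled cKO IR. At a fold of 4 or more 2 members were marked in place of 32, where 14.5% of tested genes were marked.

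Of the 48 peaks on members in WT Ctrl, 32 had their summit in coding sequence, 5 in a 3′ UTR, 1 in a 5′ UTR and 10 in an intron or an exon of another transcript. The letters GGACT, a common form of the m6A consensus, stood within 50 bases of the summit in 3 of these 48 peaks, or 6.25%, against 11.5% of all 12181 consensus peaks of WT Ctrl. In the other groups it was 2 of 36 member peaks in cKO Ctrl (11.4% of all peaks), 0 of 18 in those labelled WT IR (11.2%) and 0 of 5 in those labelled cKO IR (12.1%). Another form of the consensus, GGAC followed by A or C, stood within 50 bases of the summit in 12 of the 48 member peaks of WT Ctrl. That is 25.0%, near the 23.0% of all consensus peaks of WT Ctrl. Of the members marked in all 4 groups, 3 hold this form within 50 bases of the WT Ctrl summit of their shared peak. Their sites are shown with 12 bases to each side in the sense of the transcript and the letters in capitals, read from the GRCm38.p6 genome, and are followed by the 3 sites of GGACT.
Ndufa12: gtaaattcatctGGACAaaccataaattc
Ndufv3: ctaagaagaaatGGACCaagcctgtagaa
Uqcrb: aaggcttcctgaGGACCtttataatgaca
Ndufa4: ctctgtgaatgtGGACTacagcaaactga
Ndufa8: tcacagagtactGGACTtgccttgattac
Ndufa10: ctagagccgtctGGACTctgatggtgatg

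These sites lie in the coding sequence except that of Ndufa10, which lies in an intron or an exon of another transcript, in a peak that also covers Mir6900. They are matches of letters, which do not show that a base is methylated. No share of matches is given for windows without a peak. Ndufa12 is at chr10:94220740-94220768 on the plus strand, Ndufv3 at chr17:31527820-31527848 on the plus strand and Uqcrb at chr13:66901485-66901513 on the minus strand. Ndufa4 is at chr6:11900558-11900586, Ndufa8 at chr2:36039820-36039848 and Ndufa10 at chr1:92464496-92464524, all on the minus strand. The authors' fold enrichment over control at the Ndufa12 peak was 5.81, 5.28 and 5.64 in the WT Ctrl libraries, 5.71, 5.09 and 6.16 in cKO Ctrl, 5.75, 4.30 and 4.21 in those labelled WT IR and 4.11, 3.88 and 3.86 in those labelled cKO IR. At the Uqcrb peak it was 4.70, 4.27 and 3.65 in WT Ctrl, 4.16, 3.84 and 3.66 in cKO Ctrl, 4.05, 3.57 and 3.07 labelled WT IR, and 2.55, 2.32 and 2.92 labelled cKO IR. The lowest Uqcrb folds were those of the 3 libraries labelled cKO IR. At Ndufv3 the means of the 4 groups ran from 3.14 to 3.71, at Ndufb7 from 2.01 to 2.77, and at the 3′ UTR peak of Ndufa10 from 2.02 to 2.47. Among members not marked in all groups the highest mean folds were Uqcr10 at 6.59 and Ndufs5 at 4.14 in WT Ctrl, Ndufv2 at 3.95 in cKO Ctrl, and Ndufs4 at 3.79 and Ndufa8 at 3.64 in WT Ctrl.

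Most members were higher in irradiated cKO cells whether or not they carried a WT Ctrl peak. Of the 31 marked members 29 rose in cKO IR against WT IR, with a median log2 difference of 0.52, and of the 27 unmarked members 25 were higher and 1 lower, with a median of 0.39. Over all genes with a coding length the medians were 0.11 for 4512 marked and -0.06 for 8312 unmarked genes. Median coding length was 411 bases in marked and 429 in unmarked members. The difference between marked and unmarked members was not tested.

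IP over Input was lower after irradiation in almost all members. Taking both genotypes together, IR minus Ctrl was lower in 54 and higher in 1 of 58, where 23.1% of all genes were lower and 25.3% higher, with a median of -0.49 against -0.01 over all genes. All 10 members of complex IV, 34 of 35 of complex I, 8 of 9 of complex III and 2 of 4 of complex II were lower. Uqcrh had the largest fall, of 0.80 ± 0.046 (edgeR adjusted p = 4.35e-16). The exception was Sdha, which was higher by 0.27 ± 0.029 (edgeR adjusted p = 1.16e-09), while Sdhb at -0.08 ± 0.037 and Uqcrc1 at 0.01 ± 0.036 did not pass. The values moved with length here too, from -0.38 in the shortest to 0.36 in the longest class of all genes. With the length trend taken out 42 members were lower and 2 higher, where 27.4% of genes were lower, and the median was -0.21. The share of genes called higher is not given for that fit.

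Both parts of the ratio moved. A comparison added after these values were seen took the IP levels alone, and 57 members were lower and 1 higher in IR than in Ctrl, where 27.8% of genes were lower and 27.2% higher, with a median of -0.36. In 41 members all 6 IR IP libraries lay below all 6 Ctrl IP libraries, as did 15.6% of genes. Input levels in the same fit were higher in 37 and lower in 4, where 20.2% of genes were higher and 24.6% lower, with a median of 0.14. Uqcrb had 298, 291 and 269 CPM in WT Ctrl IP, 272, 248 and 250 CPM in cKO Ctrl IP, 181, 186 and 192 CPM in the IP libraries labelled WT IR and 233, 236 and 235 CPM in those labelled cKO IR. Its 6 IR IP libraries were below the 6 Ctrl IP libraries whichever genotype the labels give them. Sdha showed 165, 167 and 164, then 161, 163 and 164, then 187, 192 and 175, and then 156, 158 and 157 CPM in the same groups, so that its IR libraries lay on both sides of the Ctrl libraries. Averaged over both IR groups, 22 members were enriched over Input and 28 were depleted, where 40.1% of genes were higher and 40.2% lower, with a median of -0.08. Ndufa12 stayed the highest at 1.40 ± 0.064 and Cox4i1 was the lowest at -1.11 ± 0.029.

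Between the unirradiated genotypes IP over Input was lower in 16 and higher in 1 member in cKO Ctrl than in WT Ctrl, where 12.5% of all genes were lower and 10.1% higher, with a median of -0.10. When only the 12 Ctrl libraries were fitted, which was added after the data were seen, 24 were lower and 2 higher. The share of all genes called in that fit is not given, so whether the larger count is particular to the members was not tested. Of the 16, 6 belong to complex IV, 7 to complex I and 3 to complex III. Cox8a had the largest fall, with 110, 109 and 107 CPM in WT Ctrl IP and 71.0, 74.5 and 69.5 CPM in cKO Ctrl IP. The IP groups did not overlap, while its Inputs at 128, 134 and 128 CPM and at 128, 126 and 131 CPM did. The difference of the ratio was -0.58 ± 0.062 (edgeR adjusted p = 4.7e-09). Ndufs1 was the member that rose, by 0.28 ± 0.063 (edgeR adjusted p = 0.00101), with 72.9, 74.3 and 72.6 CPM in WT Ctrl IP and 91.0, 85.2 and 80.8 CPM in cKO Ctrl IP.

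Shared features that the choice of members did not use were looked for in promoters and copies. Promoters from 250 bases before to 50 after the start site were given for 48 of the 58 members (RefSeq, GRCm38.p6). The letters GCGCANGCG, bound by NRF1, stood on either strand in 13 of the 48, or 27.1%, against 14.9% of the promoters of tested coding genes and 6.25% of all 32851 promoters. The letters AAGATGG, bound by YY1, stood in 8, or 16.7%, against 8.30% and 6.34%. The letters CCGGAAG, bound by ETS factors such as GABPA, stood in 11, or 22.9%, against 19.8% and 8.86%. Both NRF1 and ETS letters were found in Cox6a1, Sdhd and Uqcr11. The stretches of Sdhd and Uqcr11, the shorter ones, are shown because they carry the letters of both factors known for respiratory chain genes, with these letters in capitals on the strand of the gene, where the reverse complement reads CTTCCGG for ETS.
Sdhd: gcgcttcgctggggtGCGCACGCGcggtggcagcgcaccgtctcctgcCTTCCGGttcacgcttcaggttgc
Uqcr11: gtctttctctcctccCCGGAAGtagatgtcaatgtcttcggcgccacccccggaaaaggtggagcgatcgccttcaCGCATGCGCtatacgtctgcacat

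The Sdhd stretch is chr9:50603872-50603943 and that of Uqcr11 chr10:80406803-80406902, both on the minus strand. A match of letters is not a bound site. Of the 58 members 24 have at least 1 annotated copy elsewhere with 90% identity or more over at least 150 coding bases, up to 5 for Cox7c. Reads of such copies cannot always be told from those of the member, but the counts given to all copies were at most 5.04% of those of the member, reached by Uqcr10.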

How the data were processed

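RNA of CD11b+ cells was fragmented and immunoprecipitated for m6A. Per the labels and the paper's methods, Trimmomatic 0.39 served for trimming and HISAT for stranded alignment to mm10, and the authors deposited HTSeq counts for each GENCODE gene. The authors called peaks with MACS2 in each IP library, and the deposited lists hold the fold ratio at the summit, −log10 p-values and −log10 q-values and a score derived from the latter, of which only the fold and the position were used. Which Input served as control is not given in the sources used here.

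Summary lines that name no gene were left out. Genes that reached 10 counts in 3 or more libraries were tested with edgeR 4.0.16 (TMM scaling, quasi-likelihood test, Benjamini-Hochberg adjustment) in R 4.3.3, in a fit of 12 Inputs and in a fit of all 24 libraries, and the functions were tested on simulated data. Calls had an adjusted p under 0.05. CPM are on the TMM scale of the fit named, and exons were merged per gene for RPKM. Replicates are compared between libraries of a group, with p-values from edgeR only. A consensus peak is a set of overlapping peaks on the strand of the gene with a peak in all 3 libraries of a group. The alternatives were DESeq2 1.42.0, RLE scaling, other count filters, a replicate block, fewer libraries and a peak fold of at least 4. A coding-length offset, the fit of 12 Ctrl libraries, comparisons of IP levels and the ribosomal protein genes were added after the data were seen.

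The members and all lists were chosen with earlier results of these data known. Named by rule were the highest member per length of each complex, the 5 largest called falls and rises of each Input comparison, the 3 highest and lowest members for IP over Input in WT Ctrl, members with a peak in all groups and the 5 highest folds of the rest, and 2 called genes of each other list. Other members named were chosen after their values were seen.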

Additional observations from a re-analysis of the deposited data

Results flagged for a closer look

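The effect of irradiation on Input levels differed between cKO and WT in 51 members by the interaction test of edgeR. The difference of the effects on the log2 scale was 0.80 for Ndufa4, 0.78 for Cox7b, 0.77 for Ndufb8, 0.77 for Ndufs4 and 0.76 for Ndufa11, and it was -0.18 for Sdha.

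IP over Input differed between cKO Ctrl and WT Ctrl in 17 members and between IR and Ctrl in 55 members by the test of the difference. Groups of 3 libraries were not tested for single libraries that stand apart.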

How the results depend on the processing

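Members called were counted again under each alternative. The Input count of WT IR vs WT Ctrl was 21, went to 12 with only the 6 libraries compared, and ranged from 12 to 30 with single libraries left out. With the coding-length offset cKO IR vs cKO Ctrl went from 50 to 26, cKO IR vs WT IR from 55 to 31, the interaction from 51 to 23, and that of the Ctrl genotypes from 1 to 0. The last went to 7 with only the 6 libraries compared and ranged from 0 to 1 with single libraries left out, and the other 3 Input counts then ranged from 49 to 53, from 52 to 56 and from 50 to 53. IP over Input in cKO Ctrl minus WT Ctrl went from 17 to 26 with only the 12 Ctrl libraries, and ranged from 13 to 22 with single libraries left out. Members with a consensus peak went from 32 to 2 with peaks of at least 4-fold. The cause of these moves was not tested. All other counts under RLE scaling, DESeq2 and the other count filters lay within 1.5 times of those reported. Of 674 alternative values of 32 named pairs of a member and a comparison, 667 kept their side of the threshold, 7 lost it (6 of Uqcrfs1 in cKO Ctrl vs WT Ctrl plus the Sdha interaction with the coding-length offset) and 0 changed direction. These pairs were named by rule, and other named members are outside this tally. Others lost their call in cKO IR vs WT IR with the coding-length offset. In complexes II to IV these were Sdhc, Sdhd, Uqcrb, Uqcr10, Uqcr11, Cox5a, Cox6a1, Cox6c, Cox7c and Cox8a. In complex I further members also lost their call, and Ndufa13 changed direction. With a replicate block the Input counts were 19, 49, 1, 55 and 51 (in the order irradiation in WT, irradiation in cKO, genotype in Ctrl, genotype in IR, interaction) and the IP counts stayed at 48, 51, 50, 17 and 55. The numbers gave no sign of pairing: same-numbered libraries of 84 pairs correlated between -0.41 and 0.22 in their deviations from the group mean, 9 above 0.1, and 1 of 24 libraries correlated best with their own number.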
